A study of Homo sapiens with 24 samples.

Results

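A set of 9 genes of the NRF2 oxidative stress response was followed across 2 colorectal cancer lines and 4 conditions. The 9 genes were NFE2L2, which encodes the transcription factor NRF2, its inhibitor KEAP1, and the target genes NQO1, HMOX1, SRXN1, SLC7A11, PGD, FTH1 and ME1. They were chosen by symbol among the 37967 genes read, and all 9 were measured in all 24 samples. HCT116 is an epithelial line from a human colorectal carcinoma, and HCT116 oxpl-R is a line derived from it by repeated pulses of oxaliplatin, a platinum drug that forms DNA adducts. All groups, controls included, carried a Tet-On transgene for the adenovirus protein E1A, which doxycycline switches on. Each line was sampled untreated (control), with 0.5 µg/mL doxycycline (E1A), with 25 µM oxaliplatin for 24 h (oxaliplatin), and with doxycycline from 3 h before the oxaliplatin (E1A + oxaliplatin). Each of these 8 groups had 3 samples that the labels call biological replicates, and n = 3 holds for every mean below. The resistant cells were a single derived line, which the study found to be hypotetraploid with a heterogeneous karyotype. Doxycycline was not given to cells without the transgene, so E1A and doxycycline cannot be told apart. The E1A transcript itself was not analysed here.

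NRF2 is held at a low level in unstressed cells by KEAP1, which brings it to a CUL3 ubiquitin ligase and so to the proteasome. Oxidants and electrophiles modify cysteines of KEAP1, NRF2 then accumulates, and it binds antioxidant response elements together with small MAF proteins. Its targets carry out quinone reduction, heme breakdown, peroxiredoxin repair, cystine import for glutathione synthesis, iron storage and the production of NADPH. Since NRF2 is controlled largely at the level of the protein, the amount of NFE2L2 mRNA is not a measure of NRF2 activity.

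The element that NRF2 binds is shown first, although the genes were chosen by symbol and not by it. The core letters TGACNNNGC were searched on both strands of the 1000 bases before each RefSeq start site (GRCh38). They occurred in 31.9% of all 35116 such windows. Of the 9 genes, 6 had an entry in the RefSeq table used, and the letters were found before NQO1, ME1, KEAP1 and PGD but not before NFE2L2 or SRXN1. HMOX1, SLC7A11 and FTH1 had no entry. The matches are printed 5′ to 3′ along the strand that reads TGAC, with the core in capitals.
NQO1 (chr16:69726997-69727025, strand −): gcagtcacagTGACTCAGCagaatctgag
ME1 (chr6:83431170-83431198, strand −): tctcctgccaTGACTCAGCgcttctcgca
KEAP1 (chr19:10502807-10502835, strand −): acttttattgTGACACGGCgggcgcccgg
KEAP1 (chr19:10502784-10502812, strand +): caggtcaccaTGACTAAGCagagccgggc
PGD (chr1:10398853-10398881, strand −): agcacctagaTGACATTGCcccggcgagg
The NQO1 core lay 455 to 447 bases before the start site and the ME1 core 137 to 129 bases before it. These 2 cores have the same letters, which also hold the AP-1 motif TGACTCA. The KEAP1 cores lay 54 to 46 and 31 to 23 bases before 1 of its 2 start sites, and the latter is on the strand opposite to the gene. The PGD core lay 201 to 193 bases before the start, on the strand opposite to the gene. A match of so short a motif is a description of the letters, and no binding was measured here.

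Levels are given as normalised CPM (read counts scaled to a common library size), scaled by TMM over all 24 samples, so that they compare a gene between samples and not genes with each other. Differences are log2 fold changes (log2FC) with their standard error (SE) from edgeR's quasi-likelihood test. The p-values were adjusted by Benjamini-Hochberg over all genes tested in the comparison, separately in each deposited table, and a gene is called changed at an adjusted p below 0.05. The counts used summed to between 24838095 and 37927720 per sample. The 9 genes had at least 54 counts in every sample, the lowest being SLC7A11 in an oxaliplatin sample of HCT116. Samples of a group correlated with r of at least 0.9508. Of the 8 epithelial markers, EPCAM, KRT8, KRT18, KRT19, CDH1 and CDX2 were expressed in all samples, while CDX1 and LGALS4 stayed below 1 CPM. Their sum was 6166 to 6974 CPM in untreated HCT116 cells and 10714 to 12358 CPM after oxaliplatin, and its part in the results was not tested. Of 5 fibroblast, 6 leukocyte and 3 endothelial markers, only COL1A1 and CD68 had a median of at least 1 CPM. CPM values are shares of the mRNA, and RNA per cell was not measured, so fewer cells with a transcript and less of it per cell cannot be told apart.

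Between the untreated lines, 6 of the 9 genes differed, against 27.9% of all genes tested. NQO1, SLC7A11 and FTH1 were higher in the resistant line, while NFE2L2, PGD and ME1 were lower, so the genes did not move in 1 direction. The median log2FC was 0.15 over the 9 genes, 0.08 over all genes and −0.04 over genes with a mean of at least 1 CPM. Shares of all genes, here and below, include genes with few counts, and shares among genes of like level were not computed. With E1A, 4 of the 9 differed (17.6% of all genes), after oxaliplatin 2 of 9 (21.1%) and with both treatments 3 of 9 (18.0%). NQO1 and SLC7A11 were called in each of these 4 comparisons, SLC7A11 with E1A and after oxaliplatin not under every alternative. In response to oxaliplatin, 6 of the 9 genes changed in HCT116 cells, where 23.2% of all genes did. HMOX1, FTH1 and KEAP1 rose and SLC7A11, NFE2L2 and ME1 fell. The median log2FC was −0.18 over the 9 genes and 0.02 over all. Of the 9 genes, 1 changed in HCT116 oxpl-R cells, SLC7A11, where 4.23% of all genes did. In cells with E1A, oxaliplatin changed 3 of 9 genes in HCT116 cells (9.64% of all) and 1 of 9 in HCT116 oxpl-R cells (2.03%). E1A alone changed 1 of 9 in HCT116 cells (8.91% of all), which was NQO1. The comparisons share samples, such as the controls, and are therefore not independent of each other.

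**Figure D1:**
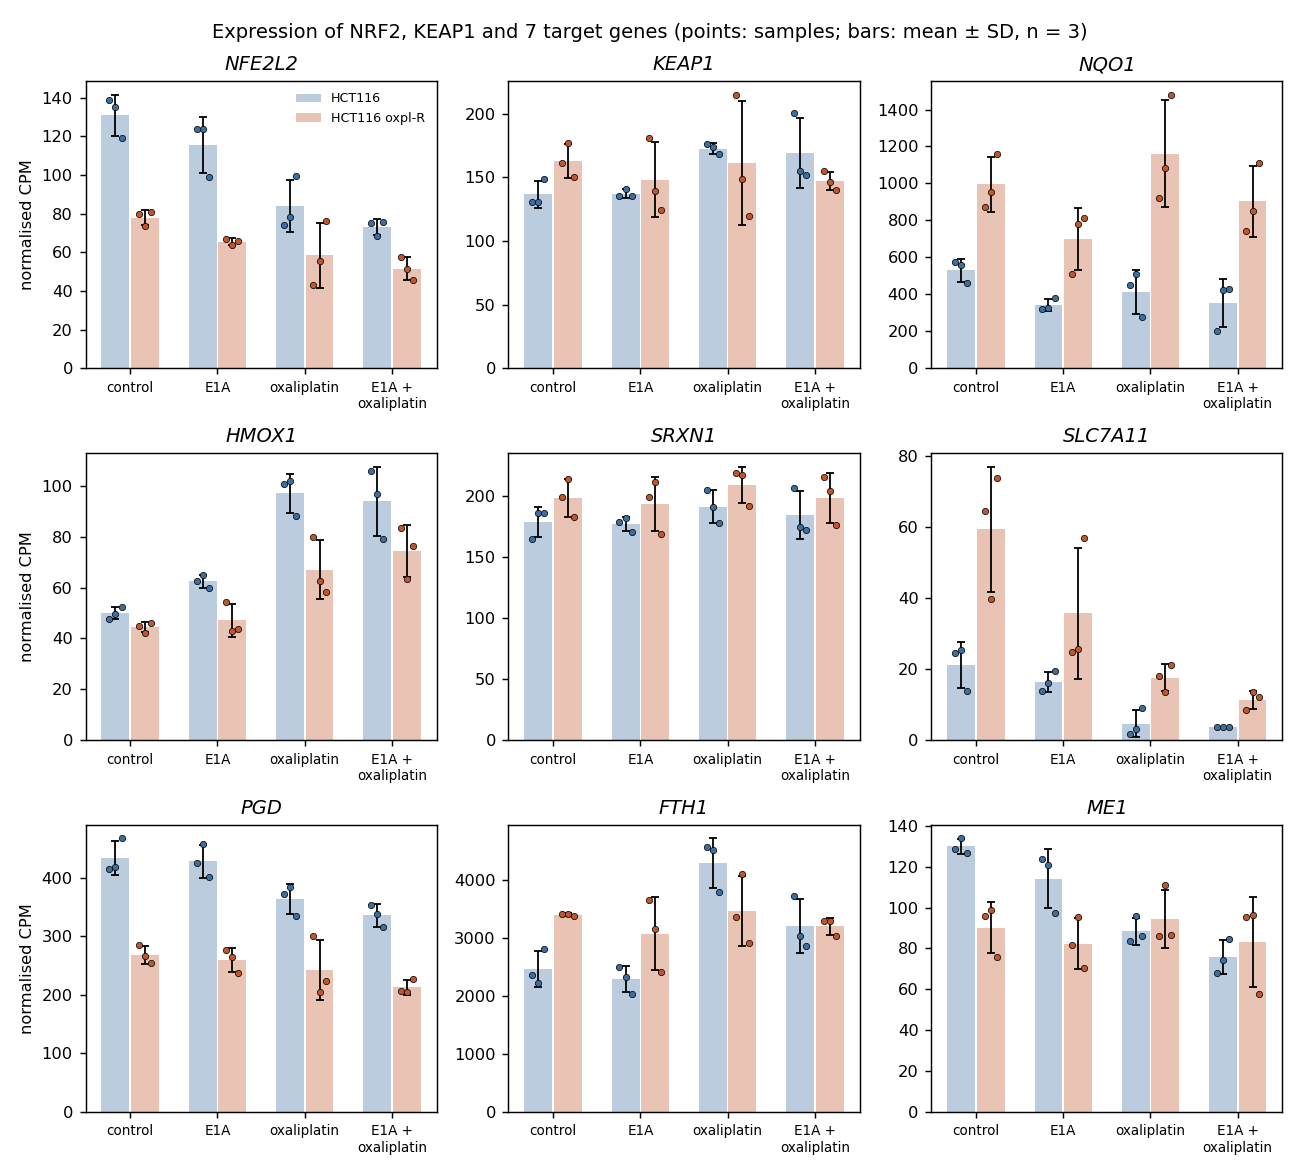
Normalised CPM (y axes, linear, from 0) of the 9 genes in the 4 conditions (x axes), HCT116 cells in blue and HCT116 oxpl-R cells in orange. Points are samples, bars are means and error bars SDs of 3 samples. NQO1 and SLC7A11 are higher in HCT116 oxpl-R cells in all 4 conditions, NFE2L2 is called lower untreated and with E1A and PGD in all but oxaliplatin alone, whereas SRXN1 stays between 165 and 219 CPM in all 24 samples.

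NFE2L2 encodes NRF2 itself and lies on chromosome 2 (GRCh38, 177218667 to 177392756, minus strand). Untreated HCT116 cells had 139, 135 and 119 CPM and untreated HCT116 oxpl-R cells 79.8, 73.4 and 80.6 CPM. The resistant samples were all below the parental ones, a 1.67-fold lower level (log2FC −0.74, SE 0.11, adjusted p = 0.000249). E1A left the same order, with 124, 124 and 98.8 CPM in HCT116 cells and 67.1, 63.7 and 65.6 CPM in the resistant line (log2FC −0.71, SE 0.14, adjusted p = 0.00533). After oxaliplatin HCT116 cells had 74.3, 78.3 and 99.3 CPM, and all 3 samples were below all 3 controls (log2FC −0.56, SE 0.15, adjusted p = 0.0225). In HCT116 oxpl-R cells oxaliplatin gave 43.3, 55.5 and 76.4 CPM, and the range overlapped that of the controls (log2FC −0.41, SE 0.22, adjusted p = 0.403). The difference between these 2 responses was 0.17 (approximate 95% interval −0.38 to 0.72, adjusted p = 0.918). With E1A, oxaliplatin lowered NFE2L2 in HCT116 cells to 75.2, 68.5 and 75.8 CPM (log2FC −0.57, SE 0.17, adjusted p = 0.0421). HCT116 oxpl-R cells with both treatments had the lowest mean, 51.5 ± 6.0 CPM (SD), and untreated HCT116 cells the highest, 131 ± 10.1 CPM. In that order of the 8 groups, neighbours overlapped except HCT116 E1A + oxaliplatin over HCT116 oxpl-R E1A.

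The lower level of NFE2L2 in untreated HCT116 oxpl-R cells was called under every alternative tried, with log2FC of −0.78 to −0.68. Its fall in HCT116 cells after oxaliplatin was not, since it lost the call without HCT116 control replicate 1 (adjusted p = 0.109) or 2 (adjusted p = 0.0957) and without HCT116 oxaliplatin replicate 1 (adjusted p = 0.0655) or 2 (adjusted p = 0.0795). In E1A cells the same held without HCT116 E1A replicate 1 (adjusted p = 0.144) or 2 (adjusted p = 0.139) and without E1A + oxaliplatin replicate 2 (adjusted p = 0.196) or 3 (adjusted p = 0.0747). Between the lines after oxaliplatin, NFE2L2 had a log2FC of −0.61 (SE 0.26, adjusted p = 0.116), and it was called without HCT116 oxpl-R oxaliplatin replicate 3 (−0.80, adjusted p = 0.0465) and with all 24 samples in 1 fit (−0.52, adjusted p = 0.0274). With both treatments it was −0.51 (SE 0.20, adjusted p = 0.0874), called without HCT116 E1A + oxaliplatin replicate 1 (−0.49, adjusted p = 0.0495) and with all 24 samples in 1 fit (−0.51, adjusted p = 0.0424). The locus of NFE2L2 overlaps HNRNPA3 and AGPS on the opposite strand, which had medians of 289 and 71.3 CPM, and whether the library kit keeps the strand is not given in the sources used here.

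KEAP1 encodes the adaptor that presents NRF2 for degradation and lies on chromosome 19 (10486125 to 10503558, minus strand). It varied less between groups, with means from 137 CPM in HCT116 cells, untreated or with E1A, to 173 CPM in HCT116 cells after oxaliplatin, and neighbours in the order of the 8 groups all overlapped. Controls of HCT116 had 131, 130.4 and 149 CPM and the oxaliplatin samples 176, 174 and 168 CPM, without overlap (log2FC 0.41, SE 0.12, adjusted p = 0.0349). HCT116 oxpl-R cells had 161, 177 and 150.2 CPM untreated and 215, 149 and 119.9 CPM after oxaliplatin, which spanned the range of the controls. The responses of the lines differed by −0.39 (approximate 95% interval −0.91 to 0.13, adjusted p = 0.505). Between the untreated lines KEAP1 did not pass the threshold (log2FC 0.26, SE 0.11, adjusted p = 0.102), although the samples did not overlap. The rise of KEAP1 in HCT116 cells was lost in 7 of the 14 alternatives, among them without HCT116 control replicate 1 (adjusted p = 0.161) or 2 (adjusted p = 0.17) and without HCT116 oxaliplatin replicate 1 (adjusted p = 0.124) or 2 (adjusted p = 0.1). Conversely, the line difference was called without HCT116 control replicate 3 (0.34, adjusted p = 0.0475) or HCT116 oxpl-R control replicate 3 (0.33, adjusted p = 0.0127), and among genes kept by filterByExpr (0.31, adjusted p = 0.022). The difference of the responses was called without HCT116 oxpl-R oxaliplatin replicate 1 (−0.67, adjusted p = 0.0434).

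NQO1 encodes a quinone reductase that turns quinones into hydroquinones with NADPH or NADH, and it is a widely used readout of NRF2. It lies on chromosome 16 (69706996 to 69726668, minus strand), with the element printed above before its start. Untreated HCT116 cells had 576, 557 and 459 CPM and HCT116 oxpl-R cells 873, 953 and 1162 CPM, a 1.88-fold higher level (log2FC 0.91, SE 0.14, adjusted p = 0.000291). After oxaliplatin the values were 448, 509 and 278 CPM against 919.8, 1086 and 1480.4 CPM (2.67-fold, log2FC 1.42, SE 0.30, adjusted p = 0.00472). With E1A the lines differed 2.21-fold (log2FC 1.14, SE 0.21, adjusted p = 0.00285) and with both treatments 2.57-fold (log2FC 1.36, SE 0.27, adjusted p = 0.00239). In each of the 4 conditions every HCT116 oxpl-R sample lay above every HCT116 sample, and NQO1 was called in all 4 under every alternative tried. The 4 groups of the resistant line thus held the first 4 places in the order of the means and those of HCT116 the last 4, while neighbouring groups overlapped throughout.

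Oxaliplatin gave no called change of NQO1 in either line. The log2FC was −0.29 in HCT116 cells (SE 0.21, adjusted p = 0.365) and 0.23 in the resistant line (SE 0.24, adjusted p = 0.657), and the latter was −0.03 without HCT116 oxpl-R oxaliplatin replicate 3. These responses differed by 0.54 (approximate 95% interval −0.11 to 1.19, adjusted p = 0.454). E1A lowered NQO1 in HCT116 cells to 321, 327 and 379.5 CPM, all below the 3 controls, a 1.60-fold lower level (log2FC −0.68, SE 0.12, adjusted p = 0.000899). HCT116 oxpl-R cells with E1A had 507, 778 and 811 CPM, also all below their controls, but the difference did not pass the threshold (log2FC −0.51, SE 0.23, adjusted p = 0.805). The E1A responses of the lines differed by 0.14 (approximate 95% interval −0.35 to 0.63, adjusted p = 1.0). The fall in HCT116 cells was not called with all 24 samples in 1 fit (adjusted p = 0.605), nor by limma on log2(value + 1) (adjusted p = 0.0599) or log2(value + 0.1) (adjusted p = 0.054). Nor was it called with the replicate number as a block (adjusted p = 0.074).

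**Figure D2:**
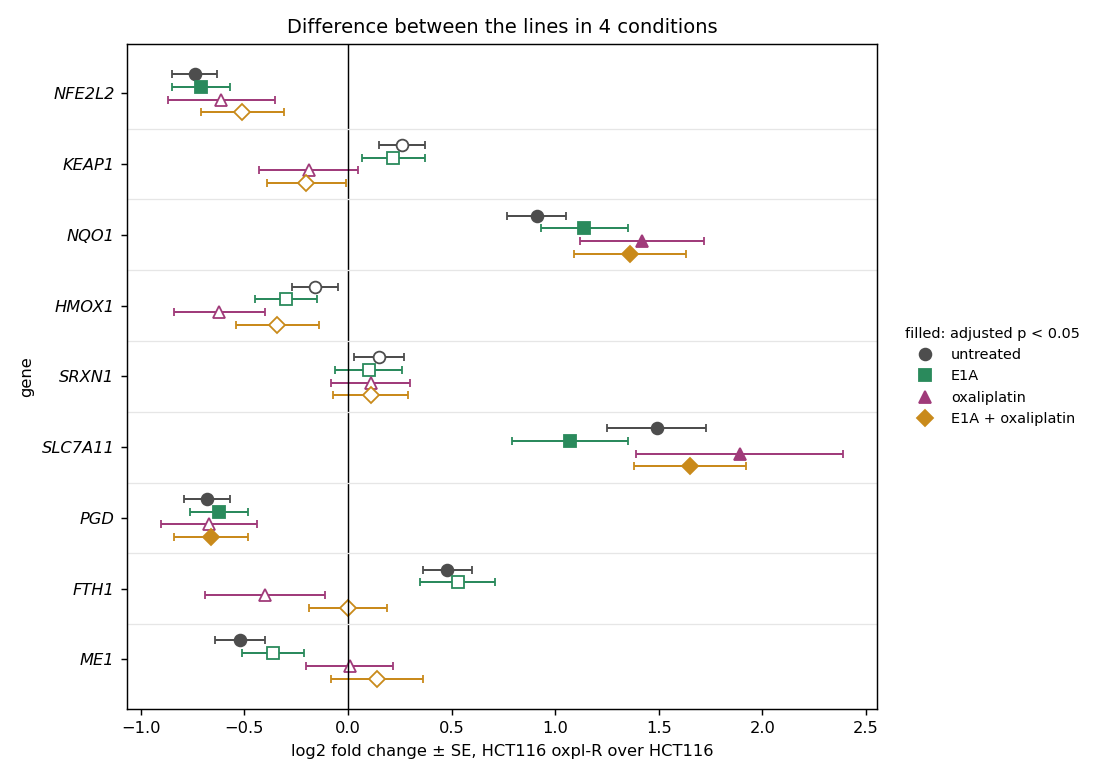
Log2 fold change of HCT116 oxpl-R over HCT116 cells (x axis, ± SE) for the 9 genes (y axis) in the 4 conditions, with filled symbols where the adjusted p is below 0.05. NQO1 and SLC7A11 lie to the right of 0 and are called in each condition, and FTH1 and ME1 are called only untreated.

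HMOX1 encodes heme oxygenase 1, which splits heme into biliverdin, iron and carbon monoxide, and lies on chromosome 22 (35380361 to 35394214, plus strand). It was 47.5, 49.8 and 52.4 CPM in untreated HCT116 cells and 101, 102 and 88.4 CPM after oxaliplatin, a 2.05-fold rise without overlap (log2FC 1.04, SE 0.13, adjusted p = 0.00112). That rise was called under every alternative tried. HCT116 oxpl-R cells went from 45, 42.2 and 45.9 CPM to 80.1, 62.8 and 58.3 CPM. These groups did not overlap either, but the difference did not pass the threshold (log2FC 0.60, SE 0.19, adjusted p = 0.117). With all 24 samples in 1 fit it was called (adjusted p = 0.0247), and also with the replicate number as a block (log2FC 0.59, adjusted p = 0.0439). The responses of the lines differed by −0.42 (approximate 95% interval −0.87 to 0.04, adjusted p = 0.403). With E1A, HCT116 cells went from 62.8, 64.8 and 59.9 CPM to 106, 96.9 and 79.0 CPM (log2FC 0.68, SE 0.18, adjusted p = 0.0272). In HCT116 oxpl-R cells with E1A oxaliplatin gave 83.5, 63.4 and 76.2 CPM against 54.5, 43.1 and 43.7 CPM (log2FC 0.63, SE 0.19, adjusted p = 0.121). Samples of the same replicate number deviated together in that comparison, and with the replicate number as a block HMOX1 was called (log2FC 0.62, adjusted p = 0.00624), so that 2 of the 9 genes were called in place of 1.

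HMOX1 was the highest in the 2 oxaliplatin groups of HCT116 and then in those of HCT116 oxpl-R, and only HCT116 E1A over HCT116 control was a step without overlap in that order. The response in HCT116 cells with E1A lost its call without any of the HCT116 E1A replicates 1, 2 or 3 (adjusted p = 0.172, 0.152 and 0.102) and without HCT116 E1A + oxaliplatin replicate 2 (adjusted p = 0.0817). It also lost it with the length-scaled table (adjusted p = 0.0596) and by limma with a pseudocount of 1 or 0.1 (adjusted p = 0.0624 and 0.0616), 7 of 14 alternatives in all. E1A alone gave a log2FC of 0.28 in HCT116 cells (SE 0.10, adjusted p = 0.0845), called without HCT116 E1A replicate 3 (0.30, adjusted p = 0.0343) and by DESeq2 (0.29, adjusted p = 0.0267). Between the lines HMOX1 was not called by the edgeR fit used throughout. After oxaliplatin the log2FC was −0.62 (SE 0.22, adjusted p = 0.0575), and it was called without HCT116 oxaliplatin replicate 3 (−0.68, adjusted p = 0.0495) or HCT116 oxpl-R oxaliplatin replicate 1 (−0.77, adjusted p = 0.0175). It was also called with all 24 samples in 1 fit (adjusted p = 0.0158), with the length-scaled table (adjusted p = 0.0473) and by limma with a pseudocount of 1 or 0.1 (adjusted p = 0.0353 and 0.0369). With E1A it was −0.30 (SE 0.15, adjusted p = 0.189), called without HCT116 oxpl-R E1A replicate 1 (−0.47, adjusted p = 0.0399) and among genes kept by filterByExpr (−0.41, adjusted p = 0.0339).

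SRXN1 encodes sulfiredoxin, which restores overoxidised peroxiredoxins, and lies on chromosome 20 (646615 to 653200, minus strand). It was the steadiest of the 9 genes between groups, with means from 177 ± 5.93 CPM in HCT116 cells with E1A to 209 ± 15.3 CPM in HCT116 oxpl-R cells after oxaliplatin. Individual samples ranged from 165 to 219 CPM, neighbouring groups overlapped throughout, and none of the 14 comparisons called it by edgeR. Between the untreated lines the log2FC was 0.15 (approximate 95% interval −0.08 to 0.37), and after oxaliplatin in HCT116 cells it was 0.13 (interval −0.10 to 0.37).

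SLC7A11 encodes the xCT subunit of the cystine and glutamate exchanger, which supplies cysteine for glutathione, and lies on chromosome 4 (138164097 to 138242349, minus strand). Its log2FC was the largest in size of the 9 genes in 7 of the 8 comparisons of the lines or of oxaliplatin, the exception being the lines with E1A, where that of NQO1 was larger. Untreated HCT116 cells had 24.5, 25.3 and 13.7 CPM and HCT116 oxpl-R cells 64.6, 39.8 and 73.9 CPM, a 2.80-fold higher level without overlap (log2FC 1.49, SE 0.24, adjusted p = 0.000591). After oxaliplatin HCT116 cells had 1.77, 2.99 and 9.04 CPM, with replicate 3 well above the others, and the level had fallen 4.43-fold (log2FC −2.15, SE 0.53, adjusted p = 0.0178). HCT116 oxpl-R cells fell to 17.9, 13.5 and 21.1 CPM, a 3.40-fold lower level (log2FC −1.77, SE 0.26, adjusted p = 0.00247). Falls of this size were also measured with E1A. The values there went from 13.8, 16.1 and 19.4 to 3.56, 3.68 and 3.59 CPM in HCT116 cells (4.75-fold, log2FC −2.25, SE 0.22, adjusted p = 0.00084). Resistant cells went from 24.7, 25.5 and 57.0 to 8.47, 13.5 and 12 CPM (3.23-fold, log2FC −1.69, SE 0.33, adjusted p = 0.0214).

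The difference of the lines in SLC7A11 was also present in the treated cells. It was 3.70-fold after oxaliplatin (log2FC 1.89, SE 0.50, adjusted p = 0.0175), 2.10-fold with E1A (log2FC 1.07, SE 0.28, adjusted p = 0.0176) and 3.14-fold with both (log2FC 1.65, SE 0.27, adjusted p = 0.00188). In each condition all HCT116 oxpl-R samples were above all HCT116 samples. The resistant cells after oxaliplatin, 17.5 ± 3.79 CPM, had a mean near that of untreated HCT116 cells, 21.2 ± 6.47 CPM, and these groups overlapped. The responses of the lines to oxaliplatin differed by 0.41 (approximate 95% interval −0.76 to 1.57, adjusted p = 0.878). E1A alone gave log2FC of −0.35 in HCT116 cells (SE 0.19, adjusted p = 0.378) and −0.73 in HCT116 oxpl-R cells (SE 0.34, adjusted p = 0.811), and under oxaliplatin −0.34 (SE 0.52, adjusted p = 1.0) and −0.63 (SE 0.27, adjusted p = 0.471). Its overlapping antisense gene SLC7A11-AS1 had at most 0.0357 CPM in any sample.

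Single samples mattered for SLC7A11. Without HCT116 oxaliplatin replicate 3 the oxaliplatin response of HCT116 was −3.17, the line difference after oxaliplatin was 2.83, and the responses of the lines differed by 1.39 (adjusted p = 0.0422). The same sample turned the E1A response under oxaliplatin to 0.62 (adjusted p = 0.831). The response of HCT116 lost its call without HCT116 control replicate 1 (−2.03, adjusted p = 0.0656) or 2 (−2.01, adjusted p = 0.067) or oxaliplatin replicate 2 (−1.94, adjusted p = 0.0579). That of HCT116 oxpl-R cells with E1A lost it without E1A + oxaliplatin replicate 3 (−1.72, adjusted p = 0.0671), among genes kept by filterByExpr (adjusted p = 0.0652) and by limma with a pseudocount of 1 or 0.1 (adjusted p = 0.0714 and 0.0605). The line difference after oxaliplatin lost it without HCT116 oxpl-R oxaliplatin replicate 1 (1.83, adjusted p = 0.0645) or 3 (1.76, adjusted p = 0.0609), and that with E1A without HCT116 E1A replicate 1 (0.98, adjusted p = 0.0675) or 2 (1.08, adjusted p = 0.0526). The difference with E1A was also not called with all 24 samples in 1 fit (adjusted p = 0.054) or by limma with a pseudocount of 1 or 0.1 (adjusted p = 0.0523 and 0.0511). It was 0.62 without HCT116 oxpl-R E1A replicate 3, and without that sample the uncalled E1A response of HCT116 oxpl-R cells was −1.24 (adjusted p = 0.0558). E1A alone was called in HCT116 cells without HCT116 control replicate 3 (−0.60, adjusted p = 0.0465). The untreated line difference and the oxaliplatin responses of HCT116 oxpl-R cells and of HCT116 cells with E1A were called under every alternative tried. The length-scaled table is no separate check for SLC7A11, since its main fit already used that table.

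**Figure D3:**
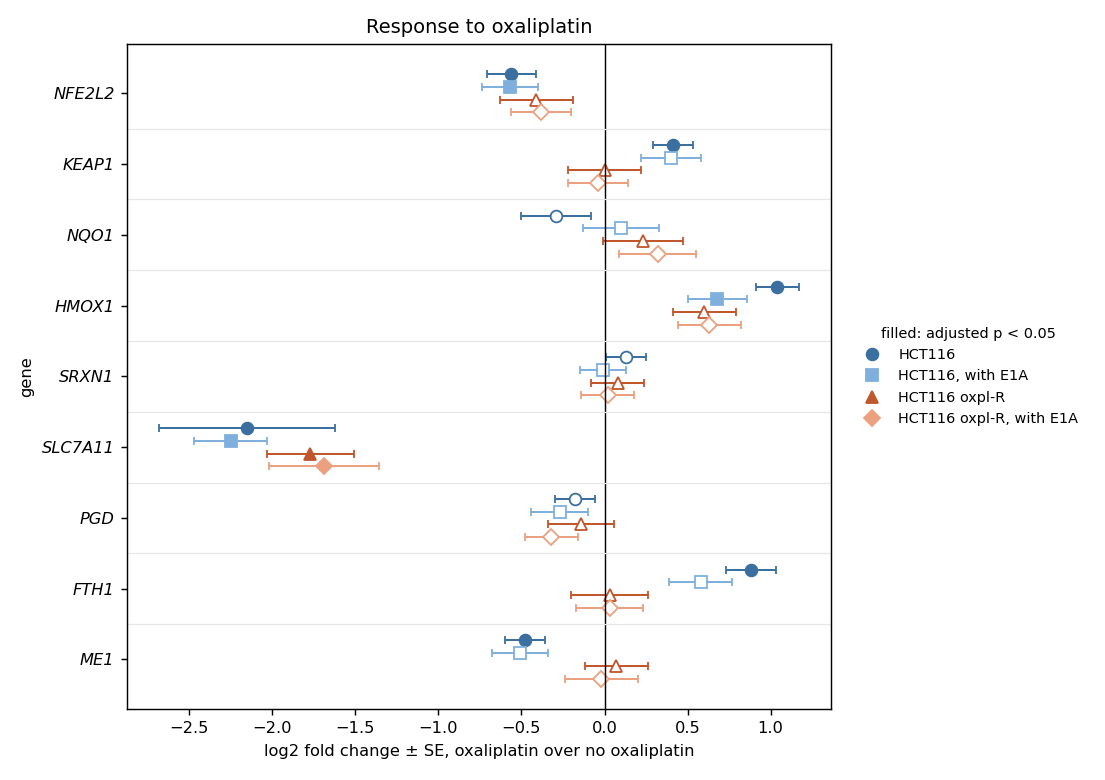
Log2 fold change of oxaliplatin over no oxaliplatin (x axis, ± SE) for the 9 genes (y axis) in both lines with and without E1A, with filled symbols where the adjusted p is below 0.05. SLC7A11 lies left of −1.5 and is called in all 4 settings, and the FTH1 symbols of HCT116 oxpl-R cells lie at 0.03.

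FTH1 encodes the heavy chain of ferritin, which oxidises and stores iron, and lies on chromosome 11 (61959718 to 61967634, minus strand). Untreated HCT116 cells had 2356, 2234 and 2811 CPM and HCT116 oxpl-R cells 3427, 3420.5 and 3379 CPM (1.39-fold, log2FC 0.48, SE 0.12, adjusted p = 0.00951). Oxaliplatin brought HCT116 cells to 4572, 4518 and 3802 CPM, all above their controls, a 1.84-fold rise (log2FC 0.88, SE 0.15, adjusted p = 0.00396). That rise was called under every alternative tried. HCT116 oxpl-R cells had 3369, 4114 and 2914 CPM after oxaliplatin, on either side of their controls (log2FC 0.03, approximate 95% interval −0.43 to 0.49, adjusted p = 0.974). The responses of the lines differed by −0.83 (approximate 95% interval −1.41 to −0.26, unadjusted p = 0.011), which did not pass after adjustment (adjusted p = 0.151). It was called without HCT116 oxaliplatin replicate 3 (−0.91, adjusted p = 0.045) and by DESeq2 (−0.86, adjusted p = 0.00625). With E1A, the response of HCT116 cells was 0.58 (SE 0.19, adjusted p = 0.0667), called without E1A + oxaliplatin replicate 1 (0.42, adjusted p = 0.00363) or 3 (0.68, adjusted p = 0.0468) and by DESeq2 (0.56, adjusted p = 0.0328).

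The untreated line difference of FTH1 lost its call without HCT116 control replicate 1 (0.45, adjusted p = 0.063) or 2 (0.43, adjusted p = 0.0614) and in 4 other alternatives, at a log2FC of 0.36 to 0.47. With E1A it was 0.53 (SE 0.18, adjusted p = 0.0648), and it was called without HCT116 oxpl-R E1A replicate 3 (0.65, adjusted p = 0.00456). Between the lines after oxaliplatin the log2FC was −0.40 (SE 0.29, adjusted p = 0.382). HCT116 cells after oxaliplatin had the highest mean of the 8 groups and HCT116 cells with E1A the lowest, 2293 ± 231 CPM, with overlap between all neighbours. The 27 FTH1 pseudogenes of the tables summed to at most 0.157% of FTH1 in any sample, so reads that Salmon placed on them were few.

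PGD encodes phosphogluconate dehydrogenase and ME1 the cytosolic malic enzyme, which both make NADPH. PGD lies on chromosome 1 (10398592 to 10420511, plus strand) and ME1 on chromosome 6 (83210402 to 83431051, minus strand). Untreated HCT116 cells had 415, 419 and 468 CPM of PGD and HCT116 oxpl-R cells 285, 266 and 255 CPM, a 1.61-fold lower level that was called under every alternative tried (log2FC −0.68, SE 0.11, adjusted p = 0.000346). The log2FC was −0.62 with E1A (SE 0.14, adjusted p = 0.00985) and −0.66 with both treatments (SE 0.18, adjusted p = 0.019). After oxaliplatin alone it was −0.67 but not called (SE 0.23, adjusted p = 0.0582), and it was called without HCT116 oxpl-R oxaliplatin replicate 1 (−0.85, adjusted p = 0.0118), by DESeq2 (−0.63, adjusted p = 0.0413) and with all 24 samples in 1 fit (−0.58, adjusted p = 0.00583). The call with E1A was lost without HCT116 E1A replicate 1 (adjusted p = 0.055) or 2 (adjusted p = 0.084). That with both treatments was lost without HCT116 E1A + oxaliplatin replicate 2 (adjusted p = 0.0761) or HCT116 oxpl-R E1A + oxaliplatin replicate 1 (adjusted p = 0.0754) or 2 (adjusted p = 0.104).

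Oxaliplatin and E1A gave no called change of PGD in either line. The log2FC after oxaliplatin was −0.18 in HCT116 cells (SE 0.12, adjusted p = 0.342), and in HCT116 cells with E1A it was −0.27 (SE 0.17, adjusted p = 0.365), called only without HCT116 E1A + oxaliplatin replicate 1 (−0.34, adjusted p = 0.0216). The 4 groups of HCT116 were the 4 highest, and the lowest of them, at 336 ± 19.3 CPM, did not overlap with untreated HCT116 oxpl-R cells at 269 ± 15.1 CPM.

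ME1 was 129, 134 and 127 CPM in untreated HCT116 cells and 95.7, 99.1 and 75.9 CPM in HCT116 oxpl-R cells (1.43-fold lower, log2FC −0.52, SE 0.12, adjusted p = 0.00613). With all 24 samples in 1 fit it was not called (−0.53, adjusted p = 0.0549). Oxaliplatin lowered it in HCT116 cells to 83.5, 95.9 and 85.9 CPM (log2FC −0.48, SE 0.12, adjusted p = 0.0179), close to the level of the untreated resistant cells. HCT116 oxpl-R cells had 86.1, 111 and 86.4 CPM after oxaliplatin, which overlapped with their controls (log2FC 0.07, approximate 95% interval −0.29 to 0.44, adjusted p = 0.869). After oxaliplatin the lines differed by 0.01 (approximate 95% interval −0.40 to 0.42). The responses differed by 0.57 (approximate 95% interval 0.13 to 1.01, unadjusted p = 0.0206), which did not pass after adjustment (adjusted p = 0.203). The fall of ME1 in HCT116 cells lost its call without HCT116 control replicate 1 (adjusted p = 0.0906) or 2 (adjusted p = 0.096). With E1A it was −0.51 (SE 0.17, adjusted p = 0.0647), just short of the threshold, and 8 of 14 alternatives called it. These were DESeq2 (adjusted p = 0.0233), genes kept by filterByExpr (adjusted p = 0.0472), all 24 samples in 1 fit (adjusted p = 0.0425), the length-scaled table (adjusted p = 0.039) and limma with a pseudocount of 1 or 0.1 (adjusted p = 0.0422 and 0.0425). The others were without HCT116 E1A replicate 3 (−0.70, adjusted p = 0.0393) or E1A + oxaliplatin replicate 1 (−0.47, adjusted p = 0.00144). The line difference with E1A was −0.36 (SE 0.15, adjusted p = 0.126), called without HCT116 oxpl-R E1A replicate 2 (−0.55, adjusted p = 0.037). Untreated HCT116 cells had the highest mean of the 8 groups and did not overlap with the next.

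The responses of the lines to oxaliplatin were tested against each other by the interaction term, which edgeR called in 0 of the 9 genes (2.61% of all genes), with 2 at an unadjusted p below 0.05, FTH1 and ME1. Of all 21018 genes tested, 3436 had an unadjusted p below 0.05. DESeq2 called 1 of the 9, FTH1. For the E1A response the interaction was called in 0 of the 9 (0.014% of all genes), with 0 at an unadjusted p below 0.05 and 0 by DESeq2. E1A was called in 0 of the 9 genes in HCT116 oxpl-R cells (0.074% of all), in HCT116 cells under oxaliplatin (0.0209%) and in HCT116 oxpl-R cells under oxaliplatin (0.618%). Each of these 3 comparisons had 1 of the 9 genes at an unadjusted p below 0.05 and 0 by DESeq2 or limma. The genes were NQO1 in HCT116 oxpl-R cells, FTH1 in HCT116 cells under oxaliplatin (log2FC −0.43, SE 0.18) and SLC7A11 in HCT116 oxpl-R cells under oxaliplatin. Over all genes tested, 1112 of 20268, 359 of 19169 and 1644 of 19745 had an unadjusted p below 0.05, in the same order. Few genes of any kind were called in these 4 comparisons.

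Positions were compared with their chromosomes, since the karyotype of the resistant line is altered. Over 11935 genes with a mean of at least 1 CPM, the median log2FC between the untreated lines was −0.04. It was −0.31 on chromosome 2, where NFE2L2 had −0.74, and −0.27 on chromosome 6, where ME1 had −0.52. On chromosome 4 it was −0.30 and on chromosome 16 −0.27, whereas SLC7A11 and NQO1 on them had 1.49 and 0.91. On chromosome 1 it was 0.01, where PGD had −0.68, and on chromosome 11 it was 0.05, where FTH1 had 0.48. The part of gene copy number in these differences was not tested.

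Further genes of the pathway were read from lists of 18 regulators and partners and 50 other targets of NRF2. TXN, TXNRD1, UGT1A6 and UGDH follow TSC22D3, the last gene read, in the alphabet and were not analysed here, and 46 of the 50 targets were in the tables. Between the untreated lines, 12 of the 18 regulators and partners differed, of which 5 were higher in the resistant line and 7 lower. Their median log2FC was 0.06, against 0.08 over all genes. Of the other targets 23 of 46 differed, 14 higher and 9 lower, with a median of 0.13. Both shares, 66.7% and 50%, stand beside 27.9% of all genes, a share that includes genes with few counts. Over genes with a mean of at least 1 CPM the median log2FC was −0.04. By the rule for named genes the 3 with the largest change were ALDH3A1, AKR1C3 and ABCG2. ALDH3A1, an aldehyde dehydrogenase, had 1.24, 1.24 and 1.53 CPM in HCT116 cells and 6.66, 6.28 and 8.1 CPM in the resistant line (log2FC 2.40, SE 0.20, adjusted p = 2.34e-06). AKR1C3, an aldo-keto reductase, had 0.904, 1.61 and 1.39 CPM and 5.54, 4.52 and 6.73 CPM (log2FC 2.11, SE 0.25, adjusted p = 4.79e-05), and as its near-identical relatives share reads, its level is uncertain. ABCG2, a drug efflux pump, had 3.35, 4.03 and 3.68 CPM and 11.6, 8.94 and 21.7 CPM (log2FC 1.94, SE 0.28, adjusted p = 0.000179). All 3 were higher in the resistant line without overlap and were called under every alternative tried.

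Oxaliplatin changed 6 of the 18 regulators and partners in HCT116 cells, 3 in each direction, and 15 of the 45 other targets tested, 13 of them higher and 2 lower, where 23.2% of all genes changed. Of all genes called in that comparison, 2502 were higher and 1902 lower. The median log2FC of the other targets was 0.10 against 0.02 over all genes. In the resistant line oxaliplatin raised 1 of 18 regulators and 4 of 46 other targets and lowered none, where 4.23% of all genes changed. Of all genes called there, 413 were higher and 424 lower. ALDH3A1 rose in both lines, to 5.09, 3.66 and 3.25 CPM in HCT116 cells (log2FC 1.65, SE 0.27, adjusted p = 0.00303) and to 25.9, 15.7 and 15.4 CPM in the resistant line (log2FC 1.44, SE 0.27, adjusted p = 0.00859). ABCB6, a porphyrin transporter, rose from 23.9, 26.8 and 29.1 to 53.4, 66.7 and 56.9 CPM in HCT116 cells (log2FC 1.23, SE 0.15, adjusted p = 0.00114). The rise in HCT116 oxpl-R cells was from 17.6, 16.8 and 22.5 to 46.3, 30.6 and 33.6 CPM (log2FC 0.96, SE 0.24, adjusted p = 0.0398). That call was lost without HCT116 oxpl-R control replicate 1 (adjusted p = 0.179) or 2 (adjusted p = 0.154) or oxaliplatin replicate 1 (adjusted p = 0.0799). For ALDH3A1 and ABCB6 the responses of the lines differed by −0.19 (interval −0.93 to 0.54) and −0.24 (interval −0.80 to 0.31).

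The difference between the oxaliplatin responses of the lines was called in 4 of the 46 other targets, 2 with a larger and 2 with a smaller log2FC in the resistant line, and in 1 of the 18 regulators and partners, where 2.61% of all genes were called. These were AKR1B10, BLVRA (1.31, SE 0.31, adjusted p = 0.0315), GSTP1, TRIM16L and the regulator TRIM21 (1.03, SE 0.28, adjusted p = 0.0491). BLVRA, TRIM16L and TRIM21 are outside the rule for named genes and were named after their values were seen. TRIM16L had a mean of 0 CPM in 2 of the 4 groups compared, so no fold is given. AKR1B10 and GSTP1 had been named for a large response in 1 line. GSTP1, a glutathione S-transferase, rose in HCT116 cells from 1094, 983 and 1194 to 2722, 2321 and 1907 CPM (log2FC 1.16, SE 0.17, adjusted p = 0.0018). In HCT116 oxpl-R cells it was 1018, 1146 and 1106 CPM untreated and 1227, 1131 and 1165 CPM after oxaliplatin (log2FC 0.12, SE 0.20, adjusted p = 0.793). The responses differed by −1.03 (SE 0.27, adjusted p = 0.0472). AKR1B10, an aldo-keto reductase of the same superfamily as AKR1C3, rose in HCT116 oxpl-R cells from 1.28, 1.79 and 1.37 to 12.6, 13.9 and 11.1 CPM (8.47-fold, log2FC 3.08, SE 0.26, adjusted p = 4.8e-05). In HCT116 cells it had 1.07, 0.605 and 0.5 CPM and 0.646, 1.05 and 1.17 CPM after oxaliplatin (log2FC 0.47, SE 0.44, adjusted p = 0.491). The responses differed by 2.63 (SE 0.45, adjusted p = 0.00427), and the difference was called under every alternative tried (2.23 to 3.05). In the groups with E1A, which that test did not use, AKR1B10 was 1.07, 2.03 and 2.71 CPM in HCT116 oxpl-R cells and 8.95, 7.93 and 11.5 CPM with oxaliplatin, and it stayed at or below 1.3 CPM in HCT116 cells. The difference of GSTP1 lost its call in 10 of the 12 fits that leave out a sample, all but those without HCT116 oxaliplatin replicate 3 or HCT116 oxpl-R oxaliplatin replicate 1, at a log2FC of −1.10 to −0.93 and adjusted p up to 0.175. It also lost it with the replicate number as a block (adjusted p = 0.0594).

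**Figure D4:**
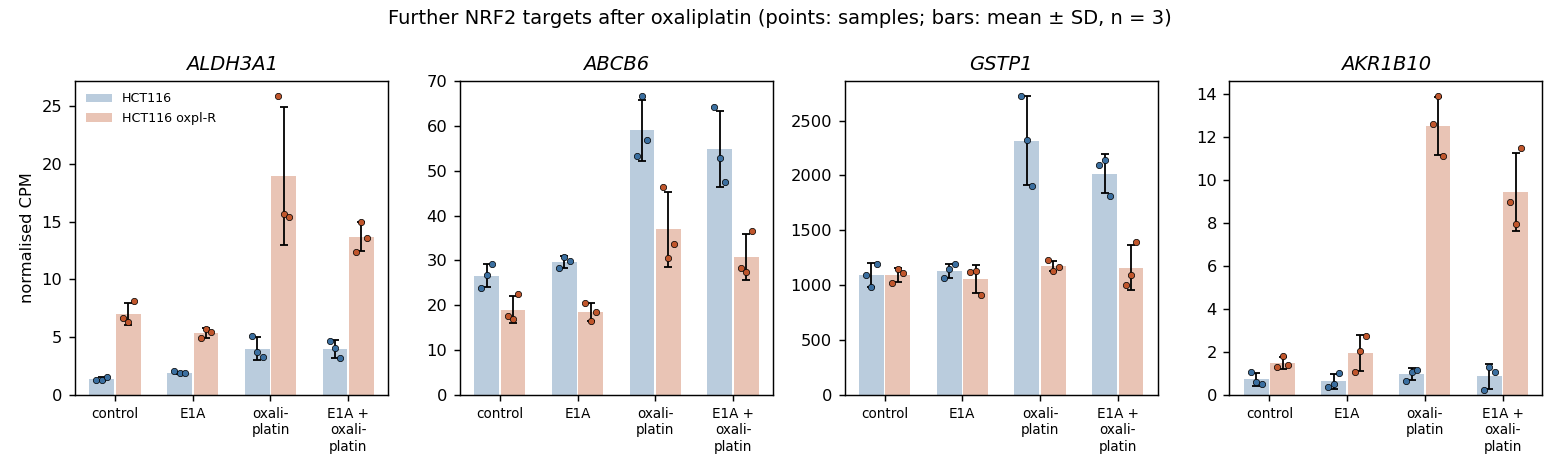
Normalised CPM (y axes, linear, from 0) of the further targets ALDH3A1, ABCB6, GSTP1 and AKR1B10 in the 4 conditions (x axes), HCT116 cells in blue and HCT116 oxpl-R cells in orange. Points are samples, bars are means and error bars SDs of 3 samples. AKR1B10 is at 7.93 CPM or above in the 6 oxaliplatin samples of HCT116 oxpl-R cells and at 2.71 CPM or below in all others.

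E1A in HCT116 cells changed 1 of the 18 regulators and partners and lowered 7 of the 44 other targets tested, raising none, where 8.91% of all genes changed. Of all genes called in that comparison, 1189 were lower and 534 higher. The median log2FC of these targets was −0.14 against 0.01 over all genes. GLRX, a glutaredoxin, fell from 22.1, 17.8 and 16.8 to 12, 11.6 and 12.8 CPM (log2FC −0.69, SE 0.14, adjusted p = 0.00383). ABCC2, an efflux transporter of conjugates, fell from 184, 190.4 and 177 to 142, 137 and 97.4 CPM (log2FC −0.60, SE 0.12, adjusted p = 0.00209). IDH1, a cytosolic isocitrate dehydrogenase that makes NADPH, fell from 178, 176 and 139.9 to 114, 118 and 126 CPM (log2FC −0.51, SE 0.11, adjusted p = 0.0053). With all 24 samples in 1 fit none of these 3 was called (adjusted p = 0.859, 0.475 and 0.712), and GLRX and IDH1 also lost their calls without HCT116 control replicate 1 (adjusted p = 0.0784 and 0.0851). Both lost them with the replicate number as a block too (adjusted p = 0.0787 and 0.0998). The same held by limma with a pseudocount of 1 (adjusted p = 0.118 and 0.0858) or 0.1 (adjusted p = 0.11 and 0.081). GLRX was not called with the length-scaled table either (adjusted p = 0.0596).

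Across the 24 samples, Pearson correlations of log2(CPM + 1) between the 9 genes describe how they varied together. The points share 8 groups and 2 lines, so they are not independent. HMOX1 and SLC7A11 were the most opposed (r = −0.90), and NFE2L2 and PGD the most alike (r = 0.79). NFE2L2 had r = −0.52 with NQO1 and r = 0.09 with SLC7A11. Among all genes of the same table with a mean of at least 10 CPM, the gene most like each was IGF2BP3 for NFE2L2 (r = 0.965), GTPBP3 for KEAP1 (0.893), PGK1 for NQO1 (0.971), DNAAF3 for HMOX1 (0.961) and SLC35E1 for SRXN1 (0.832). For SLC7A11 it was MORC4 (0.946), for PGD PDAP1 (0.971), for FTH1 S100A10 (0.937) and for ME1 NUS1 (0.941).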

How the data were processed

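RNA from 24 samples was sequenced as read pairs. The authors trimmed the pairs with Trimmomatic and used Salmon 1.6.0, with its sequence and GC bias options, against GENCODE release 47 (GRCh38); tximport gave gene sums. These are deposited as estimated counts, not normalized and partly fractional (15.9% to 30.4% of a sample's values), and they were rounded. From it 33113 genes were read, sorted by symbol, the last being SETP6. The other deposited table was read up to TSC22D3 (37967 genes) and bears the name TPM. Since each of its columns adds up to between 28004261 and 42613322, and its values had a median ratio to the estimated counts of 0.997 (7675 genes), it was treated as length-scaled estimated counts. The copies of both tables read here break off within the line after these genes, so genes later in the alphabet were not analysed here, and "all genes" and the sums per sample cover the genes read. SRXN1 and SLC7A11 came from it, and the remaining 7 genes from the first.

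Tests used edgeR 4.0.16 under R 4.3.3 (TMM, glmQLFit, glmQLFTest). The Benjamini-Hochberg adjustment covered every gene with a rounded count above 0 among the samples compared, separately in each of the 2 deposited tables. Shares of all genes join genes up to SETP6 from the first with later genes from the second. There were 12 comparisons of 2 groups, each on 6 samples, and 2 interaction terms on 12 samples. SEs were derived from the F statistic, and approximate 95% intervals span 1.96 SEs on either side. The fits were first run on simulated counts with a single fixed dispersion, in which only genes with many counts were changed. Changes in genes with few counts or a wider spread were not simulated, so that run is no check for them. Its outcome is not given here. Samples are labelled biological replicates, without mention of separate cultures, so p-values measure the spread between these samples. The 9 genes and the further lists were chosen with earlier results of these data known. Genes named from the lists were the 3 with the largest |log2FC| among those with an adjusted p below 0.05, a mean of at least 1 CPM and no overlap between groups, in each of 4 comparisons. The gene most alike to each of the 9 had the highest Pearson r among genes with a mean of at least 10 CPM. Positions came from GENCODE release 44, and sequences from RefSeq start sites, both on GRCh38.

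Whether replicate numbers pair samples was checked by correlating deviations from group means across genes. Correlations for all 3 numbers exceeded 0.1 between the lines after oxaliplatin (0.108, 0.188 and 0.232) and for oxaliplatin in HCT116 oxpl-R cells with E1A (0.431, 0.497 and 0.535), but not in the remaining 10 comparisons. Among these 10, replicate numbers 2 and 3 deviated together in HCT116 oxpl-R cells for oxaliplatin (0.089, 0.481 and 0.562) and for E1A (0.044, 0.529 and 0.713). Alternatives were RLE normalization, DESeq2 1.42.0, filterByExpr, a single fit of all 24 samples, a replicate block, the length-scaled table for all 9 genes, limma 3.58.1 on that table at pseudocounts of 1 and 0.1 (log2), and leaving out each sample. For SLC7A11 and SRXN1 the length-scaled table repeats the main fit, so it is no check for them. Tables and plots were made in Python 3.11.15 (pandas 2.3.3, numpy 2.4.6, matplotlib 3.10.9).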

Additional observations from a re-analysis of the deposited data

Results flagged for a closer look

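The response to oxaliplatin differed between the lines, by the test of the difference itself, in 2 of the further targets that had been named for a large response in 1 line. Over the whole lists the difference was called in 4 of 46 other targets and 1 of 18 regulators and partners, where 2.61% of all genes were called. AKR1B10 responded more in HCT116 oxpl-R cells, by a log2FC of 2.63 (SE 0.45, adjusted p = 0.00427), under every alternative tried. GSTP1 responded less, by −1.03 (SE 0.27, adjusted p = 0.0472), but lost the call in 11 of 20 alternatives, which were 10 of the 12 that leave out a sample and the replicate block (adjusted p = 0.0594).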

How the results depend on the processing

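Of 27 called differences of the 9 genes, none changed direction in 378 recomputations and 58 recomputations lost the call. Of 55 uncalled ones, 45 of 824 recomputations gained a call and 9 changed sign. Uncalled differences under 0.15 in size were left out of these tallies. For SLC7A11 the tallies count the length-scaled table, which repeats its main fit. With 3 samples a group, most losses came from leaving out 1 sample.

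The number of the 9 genes called moved as follows, here and in the next paragraph, with some smaller moves not listed. The share of all genes called under each alternative is not given, so whether a move was particular to the 9 genes was not tested. With all 24 samples in 1 fit the number was 4 between the untreated lines and 5 between the lines after oxaliplatin. That fit gave 2 for the oxaliplatin response of HCT116 oxpl-R cells, 2 for that with E1A, and 0 for the E1A response of HCT116 cells. DESeq2 called 5 for the oxaliplatin response of HCT116 cells with E1A, 2 for the E1A response of HCT116 cells and 1 for the difference of the oxaliplatin responses. For the oxaliplatin response of HCT116 oxpl-R cells with E1A, filterByExpr and limma with either pseudocount called 0. Limma with either pseudocount also called 0 for the E1A response of HCT116 cells. Leaving out 1 sample gave 5 to 7 between the untreated lines, 2 to 3 after oxaliplatin, 2 to 5 with E1A and 2 to 4 with both. It gave 2 to 6 for the oxaliplatin response of HCT116 cells, 1 to 7 for that with E1A, 1 in HCT116 oxpl-R cells, 0 to 1 in those with E1A, 1 to 2 for E1A in HCT116 cells, and 0 to 2 for the difference of the oxaliplatin responses.

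With the replicate number as a block, where numbers were not shown to pair samples, 2 genes were called for the oxaliplatin response of HCT116 cells, 2 for that of HCT116 oxpl-R cells and 0 for the E1A response of HCT116 cells. In the oxaliplatin response of HCT116 cells NFE2L2, KEAP1, SLC7A11 and ME1 lost their calls (adjusted p = 0.0833, 0.0963, 0.0655 and 0.0632). In that response with E1A, NFE2L2 lost its call (adjusted p = 0.0528) and FTH1 gained one (adjusted p = 0.0331). In the comparisons where the numbers pair samples, the block changed the call of HMOX1 alone, given with its result, for 2 called genes in HCT116 oxpl-R cells with E1A.

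The uncalled differences that changed sign were these, each with its range when 1 sample was left out. Without HCT116 oxpl-R oxaliplatin replicate 3, KEAP1 between the lines after oxaliplatin was 0.04 (−0.45 to 0.04), the oxaliplatin response of NQO1 in HCT116 oxpl-R cells was −0.03 (−0.03 to 0.37), the E1A response of NFE2L2 under oxaliplatin in these cells was 0.04 (−0.40 to 0.04), and the difference of the oxaliplatin responses of NFE2L2 was −0.08 (−0.08 to 0.34). For the E1A response under oxaliplatin in HCT116 cells, NQO1 was 0.04 without E1A + oxaliplatin replicate 1 (−0.45 to 0.04), and SLC7A11 was 0.01 with the replicate block, 0.01 by limma with either pseudocount and 0.62 without oxaliplatin replicate 3 (−0.73 to 0.62). Where no construction of an alternative shows it, the cause was not tested.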
